A study of Rattus norvegicus with 8 samples.

Results

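The comparison set FRTL-5 cells carrying the L629F human thyrotropin (TSH) receptor against FRTL-5 cells carrying the wild-type (WT) human receptor, both without added iodide. It used every array whose label said that no iodide had been given, which was 4 of the 8 arrays of the series, 2 for L629F and 2 for WT. FRTL-5 is a rat follicular thyroid cell line, here its SB5 sub-clone, and the human receptor was stably expressed. Both groups had 1 mM sodium chloride as the salt control and 5 mU/ml bovine TSH in the medium, so the WT receptor was also under hormone. The labels name 1 line per receptor and do not say how many clones it holds or whether the arrays of a group came from separate cultures. The difference between receptors therefore cannot be told apart from any other difference between these cell lines, and the spread behind each p-value is that between these arrays alone, which may be technical.

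The TSH receptor is a G protein-coupled receptor of the thyroid follicular cell. Its main output is Gs, adenylyl cyclase and cyclic AMP, which through protein kinase A and CREB drives iodide uptake, thyroglobulin and hormone synthesis and, in rodent thyroid cells, growth. L629F is an activating substitution that raises signalling without hormone, and mutations of this kind are found in autonomously functioning thyroid tissue. The series used such cells as a model of thyroid autonomy. The arrays carried probe sets for rat transcripts, so they measured neither the human receptor nor its level.

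All 31042 probe sets other than the array's control probe sets were considered, and the 18625 left after the lowest 40% by mean signal were tested. Values are MAS5 signals, a linear brightness per probe set, and differences are L629F minus WT in log2 with their standard error, from limma with Benjamini-Hochberg adjustment over all probe sets tested. Log2 signals correlated at 0.954 between the L629F arrays, at 0.965 between the WT arrays, and at 0.939 to 0.953 between arrays of different lines. The lower quartile of signal was 42.4 and 41.0 on the L629F arrays, against 30.0 and 29.7 on the WT arrays. Over both salts it was 1.39 times as high on L629F arrays (4 against 4 arrays, exact two-sided permutation p = 0.0286, the smallest this design allows). The beta-actin 3′ to 5′ ratio, a measure that is higher in degraded RNA, was 5.93 and 7.90 on the L629F arrays, against 2.23 and 5.05 on the WT arrays. Its part in the results was not tested beyond a fit with this ratio as a covariate. Markers of the follicular cell summed to 51188 to 55750 on L629F arrays and 48870 to 54057 on WT arrays, over the 9 of 10 that were on the array and with all 9 tested. Leucocyte markers, 8 on the array and 4 of them bright enough to test, summed to 754.0 to 822.0 on L629F arrays and 699.5 to 779.2 on WT arrays. Endothelial markers, with 1 of 6 bright enough, summed to 377.0 to 461.8 on L629F arrays and 388.5 to 452.0 on WT arrays. C cell markers were higher on both L629F arrays, with 2 of 6 bright enough and sums of 570.4 to 637.7 on L629F arrays and 409.6 to 466.1 on WT arrays. Fibroblast markers, with 2 of 7 bright enough, summed to 410.2 to 435.0 on L629F arrays and 335.3 to 390.4 on WT arrays. The tested members disagreed, with Pdgfra differing by -1.11 and Col1a1 by 0.40. None of the marker genes tested passed, and the part of other cells in the results was not tested.

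Between the receptor lines 18 of 18625 probe sets passed an adjusted p of 0.05, or 0.0966% of those tested. Of these, 15 were higher in L629F cells (0.0805%) and 3 were lower (0.0161%). The 2 arrays of one line lay apart from the 2 of the other for all 18, which passing the threshold on these arrays makes likely. Among all 18625 probe sets tested the lines were apart for 4701 higher and 3906 lower. Of the 18, 16 differed by at least 1 log2. A gene that missed the threshold is not thereby shown to be equal in both lines. Named genes accounted for 14 of the 18, 11 higher and 3 lower. They included genes of the amino acid and stress response (Nupr1, Chac1, Slc7a11), a secreted serpin (Serpinf1), a basement membrane collagen (Col4a6), an MHC class II chain (RT1-Da) and a caveolar coat protein (Cavin3). When the arrays were centred on all their probe sets, the split turned to 7 higher and 23 lower, and this centring moved the median of the tested probe sets to -0.18, against 0.02. The calls also rested on each of the arrays without iodide. With either WT array or with L629F replicate 1 left out no probe set passed, and without L629F replicate 2 there were 2 higher and 3 lower. At an unadjusted p of 0.05 there were 2217 probe sets, 11.9% of those tested.

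**Figure D1:**
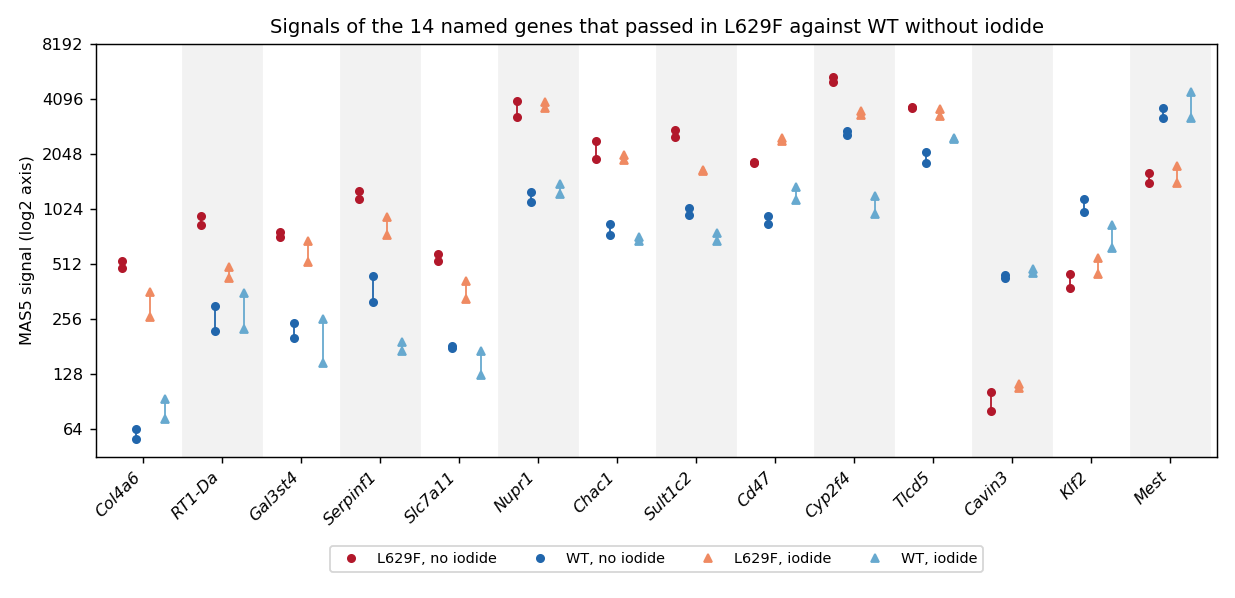
MAS5 signal (log2 axis) of the 14 named genes past the adjusted p of 0.05 in L629F against WT cells without iodide. Each point is 1 array, red for L629F and blue for WT, circles without iodide and paler triangles with 1 mM iodide, and lines join the 2 arrays of a group. The red circles lie above the blue circles for 11 genes and below them for Cavin3, Klf2 and Mest.

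Nupr1, a small chromatin-associated protein induced by cellular stress, had signals of 3980.0 and 3261 in L629F cells, against 1273 and 1121 in WT cells. It rose by 1.59 ± 0.16 (SE) in log2 (adjusted p = 0.00573, limma, 2 arrays each). Chac1 encodes an enzyme that breaks down glutathione and is a target of ATF4, the transcription factor of the integrated stress response. Its signals were 1913 and 2417 in L629F cells, against 736 and 843 in WT cells, a difference of 1.45 ± 0.17 (adjusted p = 0.00988, limma). Both genes were at over 2 times the WT signal on every L629F array. Slc7a11, the cystine-glutamate exchanger that feeds glutathione synthesis, had 580.2 and 529.9 in L629F cells, against 177 and 181 in WT cells. It rose by 1.63 ± 0.26 (adjusted p = 0.0492, limma), close to the threshold, and passed in 7 of 14 alternative settings. Serpinf1, which encodes the secreted pigment epithelium-derived factor, had 1278 and 1155 in L629F cells, against 316 and 441 in WT cells, a rise of 1.70 ± 0.23 (adjusted p = 0.0184, limma).

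Upstream DNA is shown for 3 of these genes because the stretch before each start holds the same short element, the C/EBP-ATF composite element bound by ATF4 and its partners. The motif searched was TGATGNAA on both strands of the window running from 250 bases before to 50 bases after the annotated start, and it was chosen after the values had been seen. The sequences are the 250 bases before the start in RefSeq's promoter table (GRCr8), 5′ to 3′ on the gene's strand, with the match in capitals. They lie at chr1:190645902-190646151, minus strand (Nupr1), chr3:126795881-126796130, plus strand (Chac1), and chr10:60760899-60761148, minus strand (Serpinf1).
Nupr1: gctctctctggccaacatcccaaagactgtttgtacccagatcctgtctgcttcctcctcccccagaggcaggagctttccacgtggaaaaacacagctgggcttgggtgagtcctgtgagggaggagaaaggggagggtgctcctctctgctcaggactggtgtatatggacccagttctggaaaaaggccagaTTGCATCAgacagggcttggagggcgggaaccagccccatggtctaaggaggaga
Chac1: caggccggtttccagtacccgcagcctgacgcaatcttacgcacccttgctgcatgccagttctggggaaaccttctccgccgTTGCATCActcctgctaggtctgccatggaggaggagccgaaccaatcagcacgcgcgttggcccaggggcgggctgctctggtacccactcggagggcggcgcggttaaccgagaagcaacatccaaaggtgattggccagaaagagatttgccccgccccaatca
Serpinf1: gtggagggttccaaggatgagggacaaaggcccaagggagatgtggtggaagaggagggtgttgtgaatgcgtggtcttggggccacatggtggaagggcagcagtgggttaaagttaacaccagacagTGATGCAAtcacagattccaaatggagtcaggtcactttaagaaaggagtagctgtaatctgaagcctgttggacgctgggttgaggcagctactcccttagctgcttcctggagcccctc

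The match began 55 bases before the start in Nupr1, 167 in Chac1 and 121 in Serpinf1, in the reverse direction in Nupr1 and Chac1. The 3 were picked for their match, and all held the same 8 bases, read as TGATGCAA on the motif's strand. No match was found for Slc7a11 in this window. Of the 14 named genes, 11 had a promoter in the table and 4 of them held the motif (36.36%), the fourth being Cyp2f4 with TGATGGAA. It was in 154 of the promoters of 8400 genes tested (1.83%) and in 3.82% of all 27457 promoters. The short form of the cyclic AMP response element, TGACG, was in 2 of the 11 promoters (18.18%), Chac1 and Cd47, against 33.38% of the genes tested. The full element TGACGTCA was in none of the 11, against 3.32% of the genes tested and 6 of 21 promoters of the cyclic AMP-induced genes described below (28.57%). The motif counts are descriptions of these letters in this window and not measurements of binding.

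Genes of other functions made up the rest of those higher in L629F cells. Col4a6, a chain of the type IV collagen of basement membranes, had 532 and 486 in L629F cells, against 63.7 and 56.6 in WT cells. It rose by 3.08 ± 0.34 (adjusted p = 0.00573, limma). Its WT signals lay under 65.4, the level below which probe sets were left out by their mean, so the size of the rise is rough. A second probe set of Col4a6 had a difference of 2.66, with WT signals of 27.0 and 77.5, also around that level. With a pseudocount, which lowers the change of a dim gene, the first fell to 2.51. RT1-Da, a class II MHC alpha chain, had 936 and 837 in L629F cells, against 299.7 and 219 in WT cells (1.79 ± 0.26, adjusted p = 0.0436, limma). Cd47, the surface protein that restrains engulfment by macrophages, had 1819 and 1856 in L629F cells, against 848 and 933 in WT cells (1.05 ± 0.16, adjusted p = 0.0436, limma). Its dimmer probe set was 0.68 higher.

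Both sulfotransferases among the named genes were higher. Sult1c2, a cytosolic sulfotransferase, had 2769 and 2549 in L629F cells, against 1031 and 942 in WT cells, a rise of 1.43 ± 0.16 (adjusted p = 0.00573, limma). Gal3st4, which sulfates galactose on glycoprotein sugars, had 717 and 768 in L629F cells, against 201 and 242 in WT cells (1.75 ± 0.28, adjusted p = 0.0492, limma). Smaller rises were seen in a pair of genes with high signal. Cyp2f4, a cytochrome P450, had 5102 and 5387 in L629F cells, against 2601 and 2739.9 in WT cells (0.97 ± 0.15, adjusted p = 0.0436, limma). Tlcd5, a TLC domain protein, had 3684 and 3638 in L629F cells, against 2096 and 1822 in WT cells (0.91 ± 0.14, adjusted p = 0.0436, limma). The other 4 probe sets past the threshold, 1 assigned to several genes and 3 to none, were 1.06 to 1.80 higher.

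Cavin3 fell furthest. It encodes a coat protein of caveolae, the small pits of the plasma membrane, and had 102 and 79.7 in L629F cells, against 429 and 447 in WT cells (-2.28 ± 0.28, adjusted p = 0.00997, limma). The WT signals were over 4 times those in L629F cells on every array. Of 7 caveolar genes listed, 6 were on the array and 3 were bright enough to test. Besides Cavin3, Cav3 differed by -0.42 and Ehd2 by 0.18, and neither passed. Mest, a paternally expressed imprinted gene with an alpha/beta-hydrolase fold, had 1411 and 1614 in L629F cells, against 3232 and 3676 in WT cells (-1.19 ± 0.18, adjusted p = 0.0449, limma).

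Klf2, a zinc-finger transcription factor, passed as lower on 1 of its 4 tested probe sets. That probe set had 378 and 453 in L629F cells, against 985 and 1156 in WT cells (-1.37 ± 0.22, adjusted p = 0.0492, limma). The brightest probe set of Klf2 differed by -0.63 and the other 2 by 0.05 and 0.03, so the probe sets of this gene disagreed. Igfbp7, a secreted binding protein of the insulin-like growth factor family, just missed the threshold, with 3649 and 3796 in L629F cells, against 7145 and 7201 in WT cells (-0.95 ± 0.16, adjusted p = 0.0553, limma). The groups did not overlap on the Klf2 and Igfbp7 probe sets whose signals are given here. On the 2 Klf2 probe sets that differed by 0.05 and 0.03 they overlapped. Rab7a, a small GTPase of late endosomes, had an adjusted p of 0.0553 (limma) as well, with 759 and 622 in L629F cells, against 2017 and 1367 in WT cells on 1 probe set (-1.27 ± 0.22). Its brighter probe set differed by -0.09.

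The same contrast was available in the 4 arrays of cells given 1 mM iodide, which are other samples of the same lines, although all 8 arrays share the fit's estimate of spread. All 18 probe sets differed in the same direction there, with no overlap between the lines. The share of all probe sets without overlap was not counted with iodide. Without iodide the lines were apart for 4701 higher and 3906 lower of 18625. The median size of the difference over them was 1.52 log2 without iodide and 1.29 with it. The 18 were picked by their values without iodide, which favours larger differences there, so the 2 medians do not measure an effect of the salt. With iodide 23 of 18625 passed (0.123%), 21 higher (0.113%) and 2 lower (0.0107%), and 11 of these were among the 18. Nupr1 was 1.53 higher in L629F cells with iodide (adjusted p = 0.00296, limma), Chac1 1.48 higher (adjusted p = 0.00627, limma) and Serpinf1 2.20 higher (adjusted p = 0.00296, limma). Cavin3 was lower by a similar amount, at -2.09 (adjusted p = 0.021, limma), and Mest at -1.26 (adjusted p = 0.0231, limma).

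The probe sets of Col4a6, RT1-Da, Klf2 and Tlcd5 that passed without iodide had smaller differences with it, which picking them without iodide also favours. That of Col4a6 was 1.90 higher and did not pass (adjusted p = 0.0597, limma). RT1-Da was 0.71 higher (adjusted p = 0.397, limma), Klf2 differed by -0.53 (adjusted p = 0.428, limma) and Tlcd5 by 0.47 (adjusted p = 0.285, limma). The second probe set of Col4a6 was 2.66 higher without and 2.88 higher with iodide. The brightest Klf2 probe set differed by -0.63 without and -0.76 with iodide, and its dimmer tested ones by 0.45 and 0.42 with it. For Cyp2f4 the difference with iodide was 1.67 (adjusted p = 0.0017, limma), the larger of the pair. Whether the receptor difference itself differed between salts was tested as an interaction over all probe sets. None passed (limma, smallest adjusted p = 0.997), with 720 at an unadjusted p of 0.05 (3.87%), of which 6 were among the 18. No gene named here can therefore be said to differ between lines in the absence of iodide and not in its presence.

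**Figure D2:**
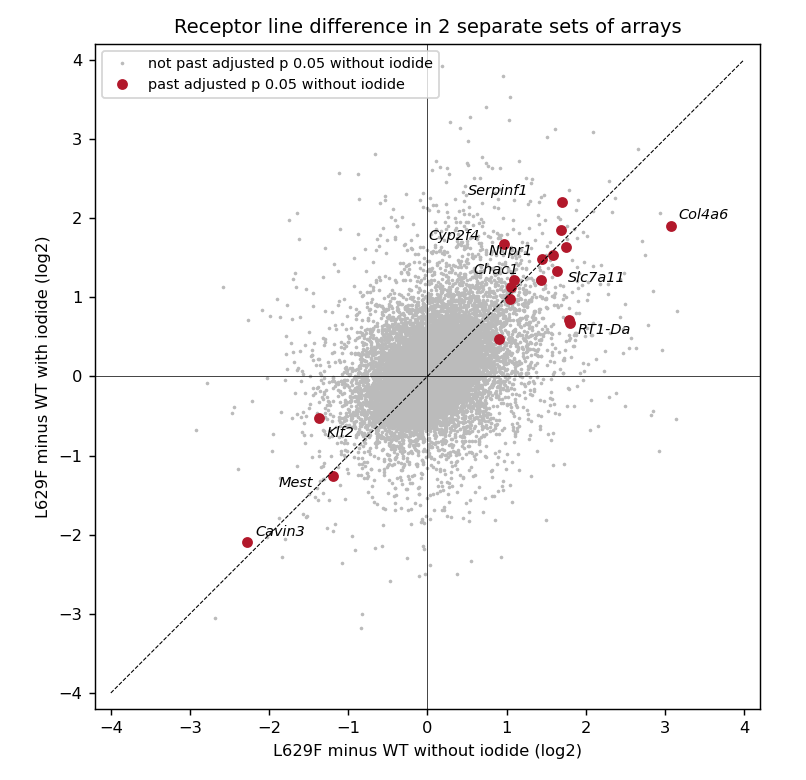
Difference L629F minus WT (log2) of each of the 18625 tested probe sets without iodide (horizontal) and with 1 mM iodide (vertical), from separate arrays. Red points are the 18 past an adjusted p of 0.05 without iodide, and the dashed line marks equal differences. The red points lie to the upper right or the lower left of the origin, with a median size of 1.52 without and 1.29 with iodide. They were picked by their values without iodide, which favours larger differences on that axis.

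The amino acid and stress response was described with a list of 30 genes, the ATF4 targets of amino acid supply and the cytosolic aminoacyl-tRNA synthetases, of which 29 were tested. Chac1 and Slc7a11 passed, and none passed in the lower direction, against 13 of all 10046 genes tested by their brightest probe set (0.129%). Of the 29 genes, 26 were higher in L629F cells, against 50.7% of all genes, and the list's median was 0.53, against 0.00 over all genes. At an unadjusted p of 0.05 there were 18 higher and 1 lower, against 6.61% and 6.09% of all genes. With iodide the list's median was 0.50. Under the other settings, with each array left out in turn among them, the median lay between 0.48 and 0.57, except when arrays were centred on all probe sets (0.33, against -0.19 over all genes). By their brightest probe set the synthetases, which charge transfer RNA with amino acids, were higher for 12 of 12, by 0.22 to 1.07. The lines did not overlap on any of these probe sets. Lines were apart in this direction for 24.8% of all genes.

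None of the synthetases passed. Iars1, which charges isoleucine, had 3346 and 3794 in L629F cells, against 1731 and 1674 in WT cells (1.07 ± 0.19, adjusted p = 0.0621, limma). Lars1, for leucine, had 4511 and 4431 in L629F cells, against 2744 and 2707 in WT cells (0.71 ± 0.13, adjusted p = 0.0621, limma). A dimmer probe set of Lars1 differed by -0.35, with the lines overlapping, and that of Iars1 by 1.45. Yars1, for tyrosine, had 6316 and 5177 in L629F cells, against 3098 and 3533 in WT cells. Sesn2, a leucine sensor, and Psph, the last enzyme of serine synthesis, were picked for mention with their values known and differed by 0.86 and 0.96. The genes of ATF4 and its partners did not show this direction, unlike Atf3, from the list of cyclic AMP-induced genes described below. Atf3 had 241 and 265 in L629F cells, against 85.6 and 116 in WT cells, a difference of 1.34 that did not pass. With iodide it was 0.78 higher. Atf4 had 5812 and 5985 in L629F cells, against 7617 and 8139 in WT cells, a difference of -0.42 that did not pass (adjusted p = 0.305, limma). Ddit3 (CHOP) and Cebpb, partners of ATF4, differed by -0.32 and -0.41, and Psat1 of serine synthesis by 0.01. The composite element above was in 10 of the 27 promoters available for this list (37.04%).

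Another arm of the stress response held no gene past the threshold. Of 25 tested genes of the unfolded protein response and endoplasmic reticulum folding, 18 were higher and the median was 0.11, and the difference from the ATF4 list was not tested. Herpud1, a component of endoplasmic reticulum-associated degradation, came nearest, with 3598 and 3545 in L629F cells, against 2103 and 2063 in WT cells (0.78 ± 0.13, adjusted p = 0.0553, limma). Hspa5 (BiP), the main chaperone there, had 15562 and 13128 in L629F cells, against 11736 and 10175 in WT cells, a difference of 0.39 that did not pass (adjusted p = 0.385, limma). Among 38 targets of NRF2 and antioxidant genes the median was 0.01 and only Slc7a11, which is on both lists, passed.

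Class II MHC genes present peptides on antigen-presenting cells, and thyroid cells can also express them. Of 10 genes listed and tested, RT1-Da passed and 7 were higher in L629F cells, with a median of 0.91 without and 0.56 with iodide. RT1-Db1, a beta chain, had 582 and 469 in L629F cells, against 130.5 and 150.3 in WT cells (1.90 ± 0.35, adjusted p = 0.0621, limma), and was 2.23 higher with iodide (adjusted p = 0.0353, limma). Cd74, the invariant chain, had 2384 and 3337 in L629F cells, against 1530 and 1500.1 in WT cells (0.90 ± 0.18, adjusted p = 0.0812, limma), and was 1.16 higher with iodide (adjusted p = 0.0299, limma). Ciita, the master regulator of class II transcription, had 165 and 141 in L629F cells, against 105 and 31.7 in WT cells, and did not pass (adjusted p = 0.398, limma).

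Not every member of the class II list lay this way. The peptide-loading genes RT1-DMa and RT1-DMb differed by -0.25 and -0.04, and Ifi30, a lysosomal thiol reductase, by -0.32. The list's median fell to 0.18 when the lowest 60% of probe sets were left out, which kept 6 of the 10 genes, and to 0.58 without WT replicate 2. Interferon-induced and class I genes, 26 tested, had a median of 0.13 and none passed. Ifit2, an interferon-induced RNA-binding protein, had 274 and 308 in L629F cells, against 76.4 and 23.0 in WT cells (2.79 ± 0.56, adjusted p = 0.0878, limma). The WT signals lay around the level of 65.4 treated as dim, so the size of this difference is rough, and with iodide it was 0.65 (adjusted p = 0.712, limma). A second probe set of Ifit2, left out as dim, had the other order, at 1.51 higher without and 3.29 higher with iodide.

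**Figure D3:**
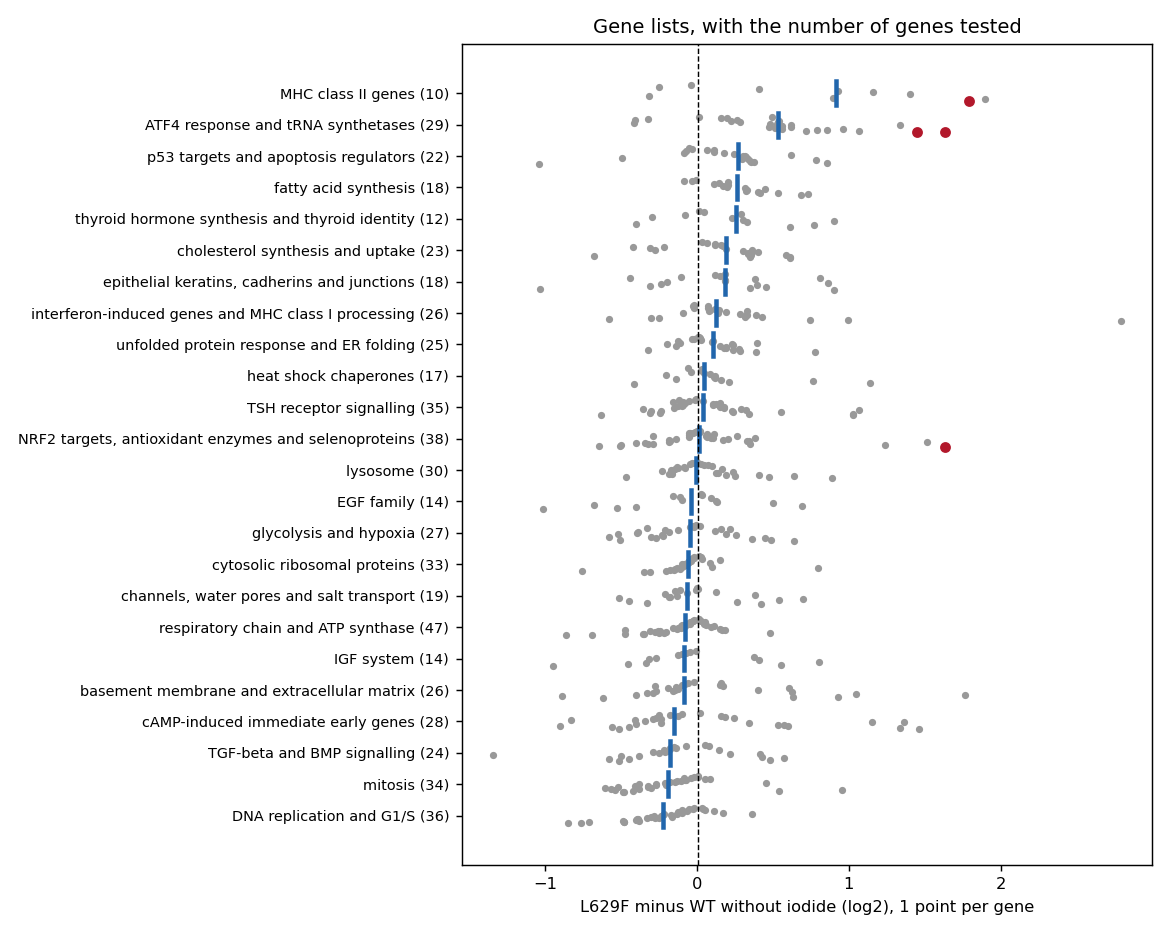
Difference L629F minus WT without iodide (log2) for the tested genes of 24 gene lists, 1 grey point per gene with the number tested in brackets. Red points passed the adjusted p of 0.05 and blue bars are list medians. The lists for class II MHC and for ATF4 targets and synthetases have the highest medians, at 0.91 and 0.53.

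No gene of the receptor's own pathway passed. The 35 tested genes of TSH receptor signalling, from G protein subunits to phosphodiesterases, differed by -0.63 to 1.07 with a median of 0.04. The lines were apart for 10 higher and 6 lower of them, against 24.8% and 22.9% of all genes. Arrb2, which desensitises receptors, came nearest in the lower direction at -0.63 ± 0.22 (adjusted p = 0.309, limma), and Rapgef3 (Epac1), a cyclic AMP-regulated exchange factor, in the higher at 1.03 ± 0.36 (adjusted p = 0.31, limma). Of 28 tested immediate early genes that cyclic AMP can induce, none passed, 12 were higher, and the median was -0.16. Egr1, a zinc-finger transcription factor, had 569 and 525 in L629F cells, against 202 and 196 in WT cells (1.46 ± 0.28, adjusted p = 0.0714, limma), and was 0.51 higher with iodide (adjusted p = 0.5401, limma). Id1, an inhibitor of helix-loop-helix factors, had 3988 and 4697 in L629F cells, against 5893 and 6481 in WT cells (-0.51 ± 0.13, adjusted p = 0.18, limma).

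No gene of thyroid hormone synthesis or identity passed, among 12 tested of 26 listed. Their median was 0.26 and 9 were higher, but the median was -0.01 with the actin ratio as a covariate. Tg, thyroglobulin, had 15811 and 16582 in L629F cells, against 12335 and 13477 in WT cells (0.33 ± 0.13, adjusted p = 0.369, limma). Slc5a5, the sodium-iodide symporter, had 1979.6 and 2761 in L629F cells, against 2819 and 2928 in WT cells (-0.30 ± 0.32, adjusted p = 0.757, limma). Duox2, the oxidase that makes hydrogen peroxide for iodination, had 2251 and 2024 in L629F cells, against 1479.5 and 1313 in WT cells (0.61 ± 0.16, adjusted p = 0.169, limma). On these probe sets both L629F arrays lay above both WT arrays for Tg and Duox2, and both lay below for Slc5a5. The lines were apart for 6 higher and 2 lower of the 12, against 24.8% and 22.9% of all genes. A dimmer probe set of Tg differed by 0.19, with the lines overlapping.

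Dio1, the type 1 deiodinase, differed by 0.77 ± 0.23 (adjusted p = 0.248, limma) and Foxe1, a forkhead factor of thyroid identity, by -0.40 ± 0.12 (adjusted p = 0.259, limma). The other thyroid transcription factors were closer to equal on their brightest probe sets, with Nkx2-1 at -0.08 ± 0.17, Pax8 at 0.01 ± 0.16 and Hhex at 0.05 ± 0.12. A dimmer probe set of Pax8 differed by -0.29, with the lines overlapping. The endogenous rat Tshr had 567 and 719 in L629F cells, against 433 and 616 in WT cells, and the lines overlapped (0.31 ± 0.25, adjusted p = 0.675, limma). The pendrin gene Slc26a4 and the iodotyrosine deiodinase gene Iyd fell among the dim probe sets left out.

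No gene of cell proliferation passed. Of 36 tested genes of DNA replication 30 were lower in L629F cells, with a median of -0.22 without and -0.20 with iodide. At an unadjusted p of 0.05, 9 were lower and 0 higher, against 6.09% and 6.61% of all genes. Prim1, a subunit of the primase that starts DNA strands, had 1426 and 2590.4 in L629F cells, against 3498 and 3423 in WT cells (-0.85 ± 0.23, adjusted p = 0.212, limma). Pold2, a subunit of DNA polymerase delta, had 959.7 and 888 in L629F cells, against 1472 and 1672 in WT cells (-0.77 ± 0.18, adjusted p = 0.154, limma). Of 34 mitotic genes 27 were lower, with a median of -0.19 without and -0.07 with iodide. At an unadjusted p of 0.05, 11 were lower and 2 higher.

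Lipid genes lay the other way. Of 18 tested genes of fatty acid synthesis 15 were higher (median 0.26) and of 23 of cholesterol synthesis and uptake 18 were higher (median 0.19), and none passed. Acsl1, which activates fatty acids, had 3787 and 3747 in L629F cells, against 2256 and 2425 in WT cells (0.69 ± 0.14, adjusted p = 0.0902, limma). Centring on all probe sets moved these medians to 0.06 and -0.01, against -0.19 over all genes. The remaining lists had medians from -0.18 to 0.27, and 21 of the 25 lists held no gene past the threshold. Ctsh, a lysosomal cathepsin, and Gadd45a, a p53-induced growth arrest gene, came near it with 0.89 ± 0.15 (adjusted p = 0.0553, limma) and -1.04 ± 0.19 (adjusted p = 0.0621, limma).

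Mest, Rab7a, Gadd45a and Cav3 lie on rat chromosome 4, whose genes as a whole were lower in L629F cells. Over the 546 tested genes that the GRCr8 gene table places there the median difference was -0.20 without and -0.22 with iodide. On the other chromosomes shown the medians without iodide ran from -0.06 to 0.14. Of the genes on chromosome 4, 72.53% were lower in L629F cells, against 48.02% of the 9464 genes on other chromosomes. At an unadjusted p of 0.05, 115 of its genes were lower (21.06%), against 495 elsewhere (5.23%). When its genes were split by their order into 11 stretches, every stretch had a median below 0 with either salt, from -0.33 to -0.02 without iodide. The median deviation of chromosome 4 genes from each gene's mean over the 8 arrays was negative on every L629F array and positive on every WT array. Without iodide it was -0.07 and -0.10 on the L629F arrays, against 0.10 and 0.12 on the WT arrays. The pattern was noticed in these data and is given as a description, with no test, since genes of a chromosome are not replicates.

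**Figure D4:**
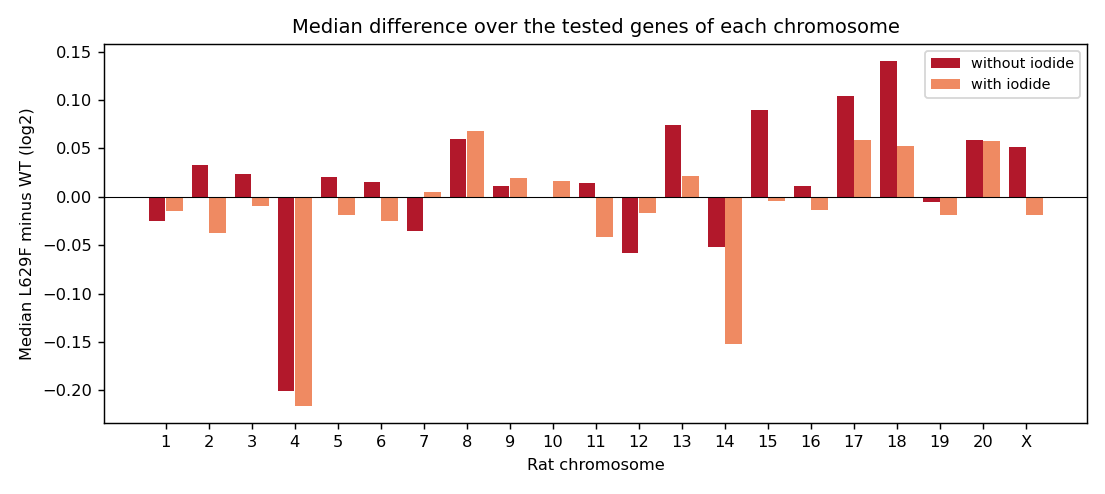
Median difference L629F minus WT (log2) over the tested genes of each rat chromosome, with genes placed by the GRCr8 gene table. Dark bars are the arrays without iodide and pale bars those with 1 mM iodide. Chromosome 4 has the lowest median with either salt, -0.20 and -0.22.

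The receptor lines also differed at the low end of the signal scale. Over the 12417 probe sets left out as dim the median difference was 0.50, against 0.02 over those tested. Over 10 equal groups of probe sets ordered by signal it was 0.52 in the dimmest group and -0.04 in the brightest, and the values with iodide were within 0.05 of these. Of the named genes past the threshold, Col4a6 in WT cells and Cavin3 in L629F cells had signals near this range. The part of this shift in the difference of a dim gene was not tested.

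**Figure D5:**
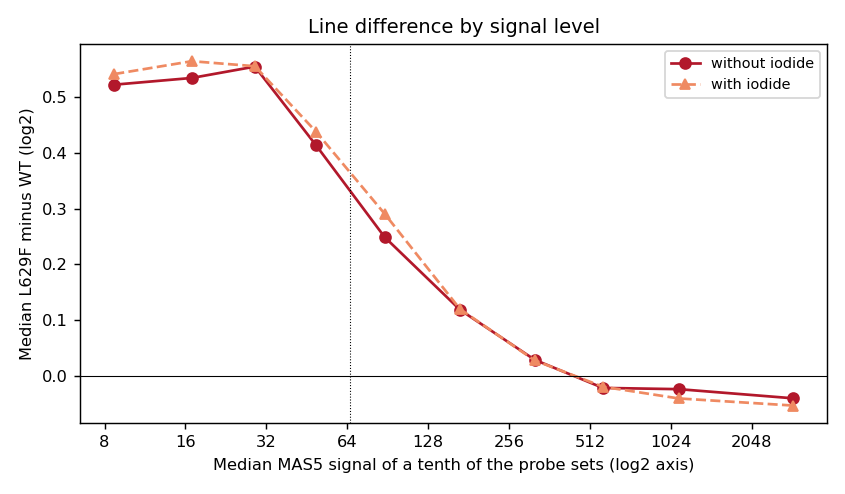
Median difference L629F minus WT (log2) in 10 equal groups of the 31042 probe sets by mean log2 signal, against the median signal of each group (log2 axis). The solid line is without iodide and the dashed line with 1 mM iodide, and the dotted line marks the level under which probe sets were left out. The difference is 0.52 in the dimmest group and -0.04 in the brightest without iodide.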

How the data were processed

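Total RNA of each sample was labelled with biotin and hybridised to a single-colour Affymetrix rat array, per the labels' protocols. The deposited values are intensities, MAS5 signals on a linear scale with 1 value per probe set and array, per the submitters' processing notes. The sources used here name neither the MAS5 version nor its scaling target. The mean of each array without its lowest and highest 2% was 500.2, so the authors had scaled the arrays before deposit.

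Log2 signals of all 8 arrays were fitted per probe set with limma 3.58.1 in R 4.3.3, with 1 coefficient per group and an intensity trend (two-sided tests, 4 residual and 8.02 prior degrees of freedom, median SE 0.255). The lowest 40% of probe sets by mean log2 signal were left out, which corresponds to a signal of 65.4. The precision is limited by the number of arrays. Symbols came from the platform annotation: 20826 probe sets had 1 symbol, 436 had several and 9780 had none, and 20764 matched the GRCr8 gene table.

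The genes named were all past the threshold with groups apart (up to 15 per direction), the next by p up to 5 where fewer fell, fixed thyroid genes, and up to 4 per list by p. The cells, lists and this rule were chosen with earlier results of these data known. Lists were described by counts and medians over each gene's brightest probe set. The motif in the promoters was added after the values were seen. The fit was tested on simulated data. Alternatives changed the pseudocount, filter, scaling, probe set choice, moderation, arrays, replicate term and threshold. Python 3.11.15 with matplotlib 3.10.9 drew the figures.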

Additional observations from a re-analysis of the deposited data

How the results depend on the processing

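All 18 probe sets past the threshold without iodide kept their sign in each of the 14 alternative settings that gave them a value, and with each of the 8 arrays left out. Of the 18, 7 had a value in 13 of these settings. The number past the threshold moved with most choices. Counts are given as higher and lower in L629F cells. Without iodide there were 15 and 3. They were 26 and 11 with a pseudocount of the 25th percentile (35.3), 17 and 5 with a pseudocount of 16, 30 and 14 with the lowest 60% left out, and 7 and 23 centred on all probe sets. Quantile normalization gave 27 and 5, the brightest probe set per gene with the pseudocount of 35.3 gave 33 and 15, a fit on the 4 arrays without iodide alone gave 47 and 29, no intensity trend gave 2 and 2, and the actin ratio as a covariate gave 19 and 13. At an adjusted p of 0.1 there were 56 and 31, and at 0.01 there were 5 and 1. Leaving out each array in turn gave 0 to 33 higher and 0 to 16 lower. The lone array left in a group was then assumed to vary like the others.

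With iodide the counts were 21 and 2. They were 26 and 4 with a pseudocount of 16, 29 and 4 with 35.3, 10 and 20 centred on all probe sets, 37 and 13 with 1 probe set per gene, 0 and 0 with no intensity trend, 70 and 18 with the actin covariate, 65 and 17 at 0.1 and 5 and 0 at 0.01. Leaving out each array gave 3 to 43 higher and 0 to 11 lower. The interaction had 0 under every setting run for it, which left out the fit on the arrays without iodide alone. The cause of these changes was not tested.

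Replicates share the numbers 1 and 2 across groups, with nothing in the labels that pairs them. Deviations of same-numbered arrays correlated at 0.086 between L629F and WT without iodide, and at 0.026 to 0.164 over the 6 pairs of groups. With the replicate number as a block there were 91 higher and 73 lower without iodide, and 101 and 41 with it.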

Other observations

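The 5 genes with the smallest p in the interaction test are not named above, and none passed it (limma, adjusted p = 0.997 for each). Pip5k1a, a kinase that makes phosphatidylinositol bisphosphate, had 359 and 296 in L629F cells, against 539 and 409.6 in WT cells without iodide. With iodide it had 441 and 486 in L629F cells, against 157 and 157 in WT cells, and the interaction had an unadjusted p of 5.43e-05. Nckap5l had a difference of 0.02 without and 2.10 with iodide, and Aplp2, a relative of the amyloid precursor, one of -0.39 and 0.84. Pin4, a prolyl isomerase, had a difference of 0.79 without and -0.68 with iodide, and Pdcd4, an inhibitor of translation, one of -0.18 and 0.68.

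On the arrays with iodide a second chromosome had a median below those of most others. The 322 tested genes of chromosome 14 differed by a median of -0.15 between L629F and WT cells with iodide and by -0.05 without it, and 65.53% of them were lower in L629F cells with iodide, against 56.52% without it.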
